A study of Mus musculus with 2 samples.

Results

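Apolipoprotein mRNA fragments are short pieces of the messenger RNAs of 9 genes (Apoa1, Apoa2, Apoa4, Apob, Apoc1, Apoc3, Apoe, Apoh and Apom) that were caught in small RNA libraries of late fetal mouse liver. They were taken as all sequences of the RefSeq class whose annotated symbol was one of these genes. All 9 symbols had such sequences, out of 16128 genes in the class, and they held 16088 of its 1085452 distinct sequences. The 2 libraries came from Ago2ADH animals, which carry a catalytically inactive Argonaute 2, and from wild type animals, 1 library per genotype, both of strain B6/129 at stage E18.5, shortly before birth. RNA of 19 to 30 nt was cut from a gel. The sources used here do not say whether the Ago2ADH animals carry 1 or more copies of the allele, nor how many livers went into a library. The comparison asks which small RNAs depend on slicing, the cut that Argonaute 2 makes in an RNA paired to its guide.

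Apolipoproteins are the proteins that hold lipid particles together in blood. Apob is the backbone of very low density lipoprotein, while Apoa1 and Apoa2 are the main proteins of high density lipoprotein, and both kinds of particle are made by hepatocytes. Apoe and the small Apoc proteins ride on these particles and steer their breakdown and uptake by receptors and lipases. Before birth the liver is also a site of red blood cell formation, so hepatocyte mRNAs share these libraries with erythroid ones.

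Several fragments show what kind of RNA was sequenced. They are given 5′ to 3′ as DNA letters with GRCm38 positions. For Apoa1 and Apoc1 the capitals mark the start codon of the protein, and for the 2 Apob reads at the editing site they mark the base that Apobec1, the cytidine deaminase of apoB mRNA, converts. The remaining Apob and Apoe reads are the sequences with most reads of their genes and carry no capitals.
Apoa1, chr9:46228951-46228978, plus strand: ttcaggATGaaagctgtggtgctggccg
Apoc1, chr7:19692457-19692475, minus strand: aaccaggATGaggctcttc
Apob at the editing site, not edited, chr12:8008046-8008067, plus strand: acgcgataCaatttgatcagta
Apob at the editing site, edited, chr12:8008040-8008066, plus strand: agacatacgcgataTaatttgatcagt
Apob, chr12:8010511-8010530, plus strand: gccaatggtcgggcactgct
Apoe, chr7:19697521-19697538, minus strand: gacgctgtctgaccaggt

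The Ago2ADH library held 7046197 reads and the wild type library 7599870 reads, of which 845938 in Ago2ADH and 968145 in wild type were of the RefSeq class. Fragments of Ago2 itself, listed under its older symbol Eif2c2, numbered 318 in Ago2ADH and 229 in wild type. The catalytic codon that the allele changes was covered by 2 Ago2ADH reads of 1 sequence, which encoded the mutant residue, and by 0 wild type reads. Reads of miR-451, the miRNA made by Argonaute 2 slicing, numbered 5421 in Ago2ADH and 327786 in wild type. There is 1 library per genotype, so the differences have no replicate check and no p-values are given. Intervals are exact 95% intervals and cover counting error only.

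Together the 9 genes gave 11080 reads in Ago2ADH, or 1572 RPM (reads per 1000000 reads of the library), and 12481 reads in wild type, or 1642 RPM. This gave a log2 ratio, Ago2ADH over wild type, of -0.0626 (interval -0.0997 to -0.0256), and 0.0229 when scaled to RefSeq reads, whose own log2 ratio was -0.0855. The fragments made up 1.31% of RefSeq reads in Ago2ADH and 1.29% in wild type. A difference was called where a gene had 100 or more reads in both libraries together, the ratio was 1.5 or more or 0.667 or less, and its interval excluded 1. Of the 7 apolipoprotein genes with enough reads, 0 were called lower and 0 higher. Over the 3329 RefSeq genes tested the same rule called 3.69% lower and 4.24% higher. The median log2 ratio of the 7 genes was -0.0445, beside 0.00401 over all genes tested, whose middle 50% lay between -0.20 and 0.19. A 2-fold limit called 0 members, beside 0.511% of all genes lower and 0.391% higher, and a limit of 5/4 also called 0, beside 8.05% lower and 8.95% higher.

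**Figure D1:**
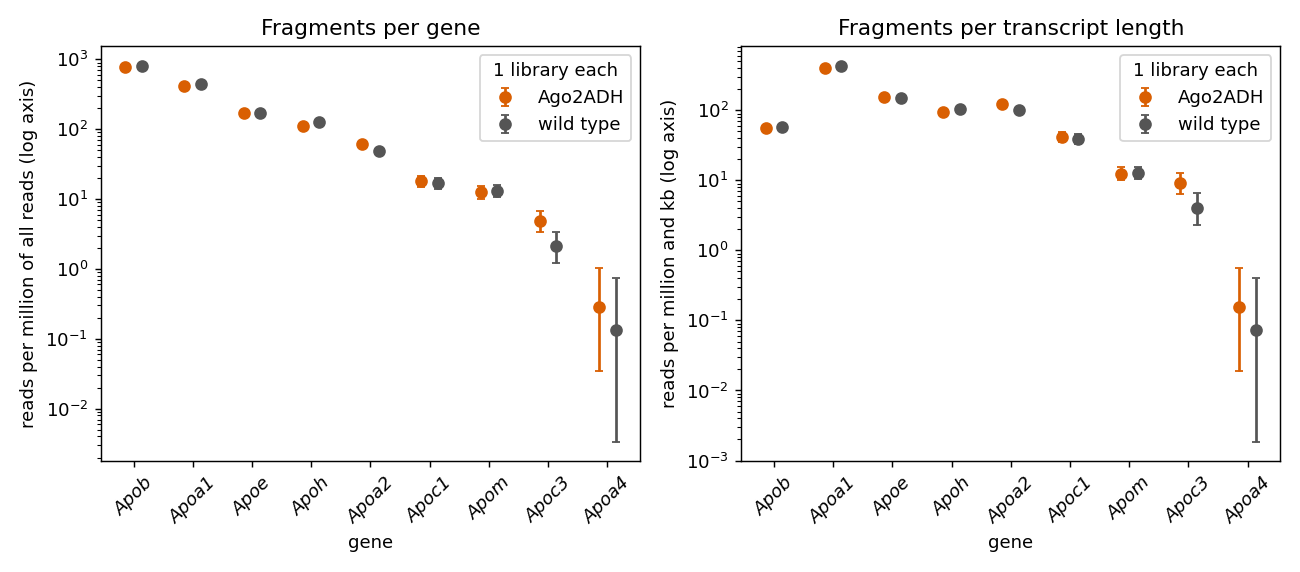
Fragment level of each apolipoprotein gene, in RPM (left, log axis) and in RPM per kb of transcript (right, log axis), in the Ago2ADH and the wild type library. Points are single libraries and bars are 95% counting intervals. Apob gave most fragments per gene, at 780 RPM in Ago2ADH and 816 RPM in wild type, while Apoa1 stood highest per kb, at 398 in Ago2ADH and 432 in wild type.

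Apob gave the most fragments, with 5494 reads (780 RPM) in Ago2ADH, against 6205 reads (816 RPM) in wild type. Its log2 ratio was -0.0664 (interval -0.12 to -0.0138), which turned to 0.0191 when scaled to RefSeq reads and was -0.0712 by TMM. Its transcript is 13934 nt long, and per kb its level was only 55.96 RPM in Ago2ADH and 58.6 RPM in wild type. The gene lies on chromosome 12 (7977648 to 8016835, plus strand) and has 29 exons.

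The genes for proteins of high density lipoprotein stood at different levels. Apoa1, which activates the cholesterol-esterifying enzyme Lcat, had 2900 reads in Ago2ADH and 3399 in wild type, or -0.12 on the log2 scale (-0.19 to -0.0480). Apoa2 had 433 reads in Ago2ADH and 374 in wild type, or 0.32 on the log2 scale (0.12 to 0.52). The intervals of these genes do not overlap, but Apoa2 stayed under the 1.5-fold limit. Apom, a lipocalin that carries sphingosine-1-phosphate on these particles, had 89 reads in Ago2ADH and 99 reads in wild type (-0.0445, interval -0.47 to 0.38). Its log2 ratio was 0.0410 when scaled to RefSeq reads and -0.0493 by TMM. Apoa4, in adult animals mainly an intestinal apolipoprotein, had 2 reads in Ago2ADH and 1 read in wild type, under the limit of 3 reads for which a ratio is given.

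Apoe, the ligand for the LDL receptor, had 1220 reads (173 RPM) in Ago2ADH and 1304 reads (172 RPM) in wild type. Its log2 ratio was 0.0131 (interval -0.10 to 0.13). Apoc1, an inhibitor of lipoprotein uptake, had 127 reads in Ago2ADH and 128 reads in wild type (0.0978, interval -0.27 to 0.46). Apoc3, an inhibitor of lipoprotein lipase, had 34 reads in Ago2ADH and 16 in wild type, or 1.20 on the log2 scale (0.30 to 2.15). With 50 reads it was too scarce for the rule. At a minimum of 50 reads it would be called higher, as were 4.46% of 5913 genes. Apoh, or beta-2-glycoprotein I, a phospholipid-binding plasma protein with little sequence in common with the others, had 781 reads in Ago2ADH and 955 reads in wild type (-0.18, interval -0.32 to -0.0431).

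With the fold limit dropped, so that only the interval had to exclude 1, Apoa1, Apob and Apoh were lower and Apoa2 was higher. Scaled to RefSeq reads, the intervals of Apoa1 (-0.11 to 0.0375), Apob (-0.0335 to 0.0717) and Apoh (-0.23 to 0.0424) included 0, as they did when scaled to reads outside the miRNA class or counted by distinct sequences. By TMM the intervals of Apoa1, Apob and Apoh excluded 0. The interval of Apoa2 excluded 0 under all of these settings. With reads of 19 to 24 nt alone the Apoa2 ratio was 0.21 and its interval (-0.0824 to 0.50) included 0. The intervals of Apoa1, Apob and Apoh excluded 0 with those reads. With transcript matches of any class the Apoa2 ratio was 0.22 (0.0354 to 0.41). Dropping the fold limit called 9.31% of all genes tested lower and 10.3% higher. The median gene tested had 179 reads, fewer than each of the 7 members, which had 188 (Apom) to 11699 (Apob), and fewer reads give wider intervals. The level per kb of transcript followed the order Apoa1, Apoe, Apoa2, Apoh, Apob, Apoc1, Apom, Apoc3, Apoa4 in Ago2ADH. In wild type Apoh, at 105.6 RPM per kb, stood above Apoa2 at 100.02, with intervals that overlap (99.005 to 112.5 and 90.1 to 110.7). In Ago2ADH these values were 93.1 (86.7 to 99.9) for Apoh and 124.9 (113 to 137) for Apoa2, which do not overlap. Levels per kb count reads of the RefSeq class only. With matching reads of any class Apoa2 had 483 in Ago2ADH and 446 in wild type. Apoh then had 829 in Ago2ADH and 1037 in wild type. The wild type order of Apoh and Apoa2 per kb depends on this choice and turns with reads of any class. Apom and Apoc3 overlapped in Ago2ADH, at 12.5 (10.01 to 15.3) and 9.17 (6.35 to 12.8), but not in wild type, at 12.9 (10.5 to 15.7) and 4.002 (2.29 to 6.50).

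**Figure D2:**
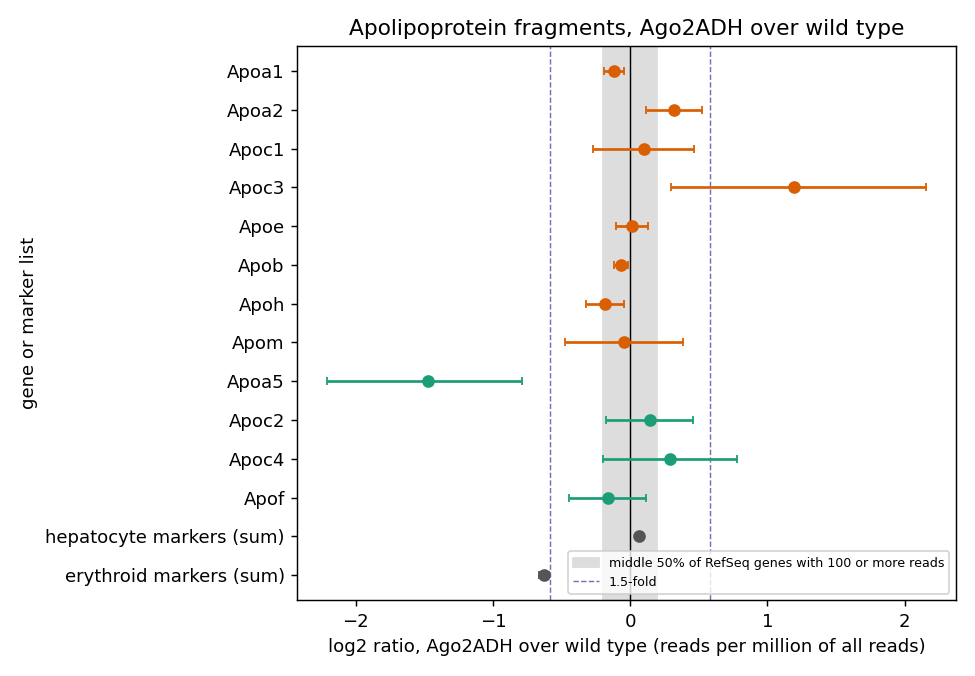
Log2 ratio of Ago2ADH to wild type with 95% counting intervals for 8 apolipoprotein genes (orange), 4 other apolipoprotein genes of the lipoprotein list (green) and the summed hepatocyte and erythroid markers (grey). The grey band holds the middle 50% of RefSeq genes with 100 or more reads and the dashed lines mark 1.5-fold. The points of genes with 100 or more reads lie inside the dashed lines, those of Apoc3, Apoa5 and the erythroid sum lie outside them, and Apoa4 is left out for too few reads.

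Hepatocyte markers, summed over 13 genes, stood at 13050 RPM in Ago2ADH and 12510 RPM in wild type, a log2 ratio of 0.0610. The median of the 13 log2 ratios had the other sign, -0.0413, and 8 of them lay below 0. Albumin (Alb) had 36365 reads in Ago2ADH and 40362 in wild type, and transferrin (Trf) had 25315 in Ago2ADH and 21899 in wild type. Of the 13 genes, 1 was called lower, the alpha-1-antitrypsin gene Serpina1a (286 reads in Ago2ADH, 566 in wild type), whose near-identical copies can share reads. Erythroid markers, summed over 14 genes, stood at 1232 RPM in Ago2ADH and 1903 RPM in wild type (-0.63). Of the 8 with enough reads 4 were called lower: Hba-a2 (5225 in Ago2ADH, 9129 in wild type), Hbb-b2 (2106 in Ago2ADH, 3413 in wild type), Slc4a1 and Spna1. The globin genes also have near-identical copies. In whole liver, fewer cells of a type and less RNA per cell cannot be told apart, and the part that cell composition has in the apolipoprotein values was not tested.

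Markers of other cell types were scarcer. Myeloid markers summed to 116 RPM in Ago2ADH and 127 RPM in wild type (10 genes, led by S100a9 and S100a8), and 1 of the 6 with enough reads, the macrophage gene Emr1 (38 reads in Ago2ADH, 64 in wild type), was called lower. The macrophage genes Csf1r (100 reads in Ago2ADH, 105 in wild type) and Cd68 (15 reads in Ago2ADH, 1 in wild type) did not go the same way. Endothelial markers summed to 34.5 RPM in Ago2ADH and 32.9 RPM in wild type (6 genes, led by Stab2 and Cdh5), and stellate and stromal markers to 15.9 RPM in Ago2ADH and 20.7 RPM in wild type (7 genes, led by Col1a2 and Col1a1). Lymphoid markers, without Cd3e, summed to 15.04 RPM in Ago2ADH and 13.8 RPM in wild type (4 genes, led by Ptprc and Il7r). Megakaryocyte markers summed to 6.24 RPM in Ago2ADH and 5.92 RPM in wild type (4 genes, led by Ppbp and Pf4), and bile duct markers to 4.83 RPM in Ago2ADH and 2.76 RPM in wild type (5 genes, led by Sox9 and Spp1). Intestine and yolk sac endoderm also make apolipoproteins. Intestinal markers, without Cdx2, summed to 3.83 RPM in Ago2ADH and 1.71 RPM in wild type (5 genes, led by Vil1 and Lgals4), and the enterocyte enzyme Alpi had 0 reads in Ago2ADH and 1 in wild type. Yolk sac markers summed to 157 reads in Ago2ADH and 152 in wild type (4 genes), of which Ttpa, also a hepatocyte gene, held 148 in Ago2ADH and 141 in wild type. The yolk sac endocytic receptor gene Cubn had 3 reads in Ago2ADH and 7 in wild type, and its partner Amn had 1 in Ago2ADH and 0 in wild type.

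Clusters on chromosomes 9 and 7 hold 5 of the 9 genes. On chromosome 9 Apoa1 (46228580 to 46230466, plus strand), Apoc3 (46232933 to 46235636, minus strand), Apoa4 (46240696 to 46243459, plus strand) and Apoa5 lie side by side. Apoa5, an activator of triglyceride breakdown and no member of the 9, was picked after its values were seen. It had 24 reads in Ago2ADH and 72 in wild type, or -1.48 on the log2 scale (-2.21 to -0.79). Its 96 reads fell short of the minimum, and at a minimum of 50 reads it would be called lower, as were 4.01% of genes. Within this cluster the log2 ratios thus ran from -1.48 for Apoa5 through -0.12 for Apoa1 to 1.20 for Apoc3, whose intervals do not overlap. On chromosome 7 Apoe (19696109 to 19699188), Apoc1 (19689481 to 19692660), Apoc4 and Apoc2 lie on the minus strand. Apoc4 had 77 reads in Ago2ADH and 68 reads in wild type (0.29, interval -0.20 to 0.78), and Apoc2, the activator of lipoprotein lipase, 170 reads in Ago2ADH and 166 in wild type (0.14, interval -0.17 to 0.46). All 4 genes of this cluster lay within counting error of 0. Apof, an apolipoprotein outside both clusters that binds lipid transfer proteins, had 191 reads in Ago2ADH and 231 in wild type (-0.17, interval -0.45 to 0.12).

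The other genes of lipoprotein assembly, transport, uptake and cholesterol supply were followed as a list of 68, of which 66 had reads and 40 had enough for the rule. Of the 40, 3 were called lower, 0 higher and 37 neither, beside 3.69% lower and 4.24% higher over all 3329 genes tested. Their median log2 ratio was -0.0444. Cyp7a1, the rate-limiting enzyme of bile acid synthesis, fell to 52 reads in Ago2ADH, against 103 in wild type (log2 ratio -0.88, interval -1.39 to -0.38). Hmgcs1, which makes the precursor of mevalonate for cholesterol synthesis, fell to 143 reads in Ago2ADH, against 279 in wild type (-0.86, interval -1.16 to -0.56). None of the Hmgcs1 reads matched the genome only once, so they cannot be told apart from copies elsewhere. Sar1a, a GTPase of the vesicles that carry cargo out of the endoplasmic reticulum, fell to 45 reads in Ago2ADH, against 81 in wild type (-0.74, interval -1.30 to -0.20). Under a 2-fold limit none of the 3 was called.

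The most abundant genes of the list did not pass the rule. They were the cholesterol exporter Abca1 with 653 reads in Ago2ADH and 616 in wild type (0.19), and the uptake receptor Lrp1 with 608 in Ago2ADH and 588 in wild type (0.16). P4hb, the small subunit of the microsomal transfer protein and also a general disulfide isomerase, had 529 reads in Ago2ADH and 586 in wild type (-0.0385). The fatty acid sensor Ppara had 429 reads in Ago2ADH and 448 in wild type (0.0466), and lipoprotein lipase (Lpl) 359 in Ago2ADH and 467 in wild type (-0.27). Hnf4a, a transcription factor of hepatocytes, had 290 reads in Ago2ADH and 329 in wild type (-0.0729).

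The fragments ran along the mRNAs in the sense direction. Of the reads, 98.2% in Ago2ADH and 98.7% in wild type matched a GENCODE transcript of their gene on the coding strand, while 3 reads in Ago2ADH and 2 in wild type matched the opposite strand. The remaining 195 reads in Ago2ADH and 155 in wild type matched neither. Reads of 1 genome match made up between 92.0% (Apoc3) and 96.8% (Apom) of the reads of each member, apart from Apoa4. Most reads across exon junctions stand in another class of the table, that of sequences absent from the genome. They numbered 844 in Ago2ADH, 6.98% of all reads that match these transcripts, and 1011 in wild type, 7.37% of such reads, and 100% of them crossed an annotated junction. A further 96 reads in Ago2ADH and 133 in wild type were of the RefSeq class and reached across a junction by 4 nt at most. For Apob the share was 4.34% in Ago2ADH and 4.36% in wild type, and for Apoa1 it was 10.3% in Ago2ADH and 10.9% in wild type.

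Among the genes with 100 or more reads, no sequence held more than 4.79% of a gene's reads, the highest share being that of Apom. The 11699 Apob reads fell on 9031 distinct sequences, of which 78.1% were read once, and its most abundant sequence had 5 reads in Ago2ADH and 8 in wild type. Apoa1 was the most repeated, at 2.01 reads per sequence. Its top sequence, the fragment over the start codon shown above, had 11 reads in Ago2ADH and 18 in wild type, 0.460% of the gene's reads. The top Apoe sequence had 3 reads in Ago2ADH and 11 in wild type. Fragments began at 729 of the 1035 positions of the Apoa1 transcript, 70.4%, and at 36.5% of those of Apob.

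**Figure D3:**
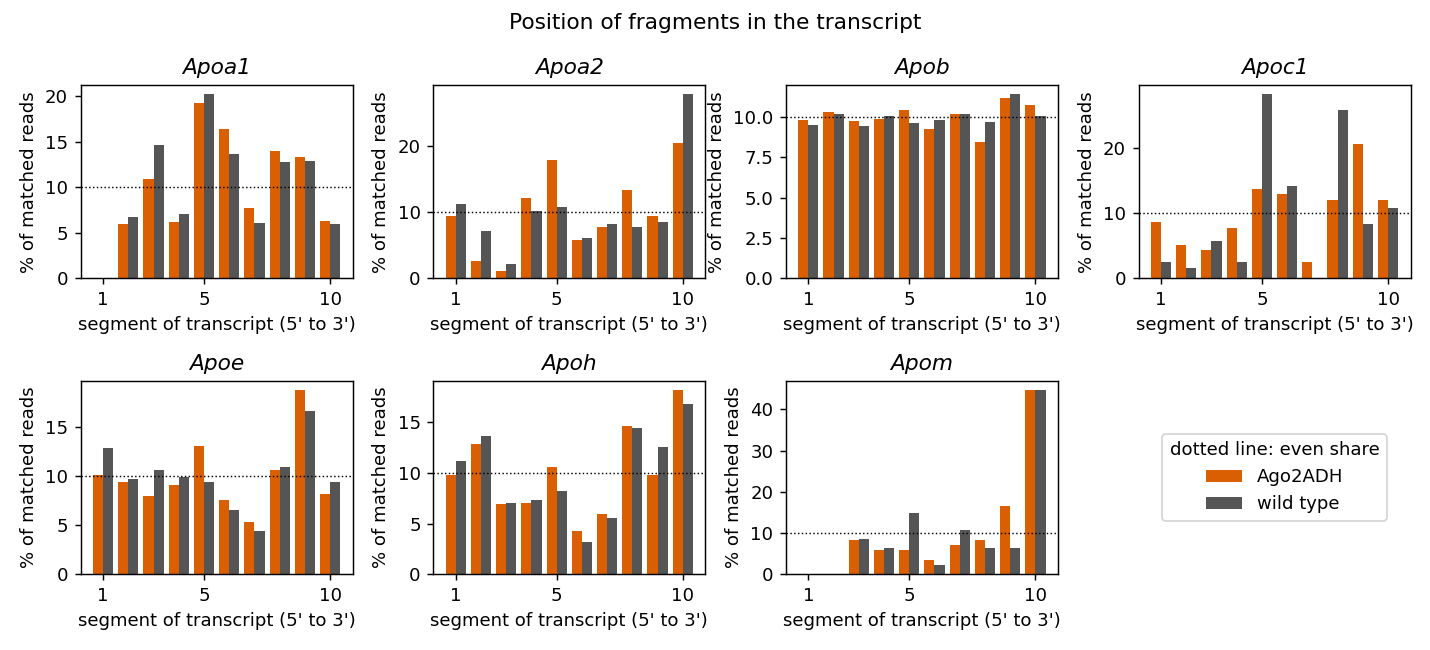
Share of matched reads (%) in each of 10 equal segments of the transcript, numbered from the 5′ to the 3′ end, for the 7 apolipoprotein genes with 100 or more reads in the Ago2ADH and the wild type library. The dotted line marks an even share. Only reads of the RefSeq class are counted, so most reads across exon junctions are left out. Apob was covered almost evenly, while Apom had 44.7% of its reads in segment 10 in both libraries.

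Each transcript was divided into 10 segments of equal length, and coverage along them differed from gene to gene. Apob was covered almost evenly, with 459 to 606 reads per segment in Ago2ADH and 581 to 701 in wild type. Its coding sequence took 97.4% of reads in Ago2ADH and 97.5% in wild type, beside 97.0% of its length. Apom was the most uneven: its 3′ untranslated region (UTR), 11.2% of the transcript, held 47.1% (36.1 to 58.2) of its reads in Ago2ADH and 46.8% (36.4 to 57.4) in wild type. Of its reads, 25 in Ago2ADH and 20 in wild type, 25.1% of all matched reads, ended at 1 base of that region. Apoh also had more 3′ UTR reads than its length gives, 15.6% in Ago2ADH and 15.2% in wild type, beside 8.49% of its length. Apoa1 had almost no reads in segment 1 of the annotated transcript, 0 in Ago2ADH and 1 in wild type. Apom had 0 reads in segments 1 and 2 in both libraries, and its annotated 5′ UTR makes up 32.3% of the transcript.

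The Apoa2 values differed along the transcript. Its coding sequence had 242 reads in Ago2ADH and 173 in wild type, while the 3′ UTR had 138 in both. The coding share was 56.8% (51.95 to 61.6) in Ago2ADH and 47.7% (42.4 to 52.9) in wild type, with intervals that overlap. Over its 10 segments the log2 ratio ran from -1.13 (-2.30 to -0.0654) in segment 2, with 11 reads in Ago2ADH and 26 in wild type, to 1.13 (0.46 to 1.84) in segment 8, with 57 in Ago2ADH and 28 in wild type. For Apoa1 the ratio was lowest in segment 3, at -0.55 (-0.76 to -0.34), and highest in segment 7, at 0.22 (-0.0564 to 0.51). In Apoa1 4 segments, 2 to 5, lay below 0 beyond counting error, and 0 lay above it. Apob stayed between -0.26 and 0.0415, and 1 of its 10 segments lay below 0 beyond counting error. Apoc1 also varied, from -1.04 to 1.85, with 2 segments below 0 and 1 above it beyond counting error. Its highest value, in segment 1, rests on 10 reads in Ago2ADH and 3 in wild type, and its interval (-0.11 to 4.35) includes 0. The Apoc1 segment above 0 is segment 9, at 1.37 (0.25 to 2.60). In Apoe the ratio ran from -0.42 to 0.48, with 1 segment below 0 and 1 above it beyond counting error.

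Apob mRNA is edited at 1 codon, where the change of a cytidine creates a stop and yields the short form apoB-48. The site is codon 2179 of the annotated reading frame, at base 8008054 of chromosome 12. The unedited base was read 11 times in Ago2ADH and 3 times in wild type, and the edited base 1 time in Ago2ADH and 0 times in wild type. The edited read, shown above, has 0 genome matches in the table, and 1 read cannot be told apart from a sequencing error. Coverage of Apob was 56.1 RPM per kb in Ago2ADH and 57.3 in wild type before it (log2 ratio -0.0306, interval -0.11 to 0.0460). After it coverage was 54.2 in Ago2ADH and 58.6 in wild type (-0.11, interval -0.19 to -0.0394), and the intervals of both stretches overlap.

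**Figure D4:**
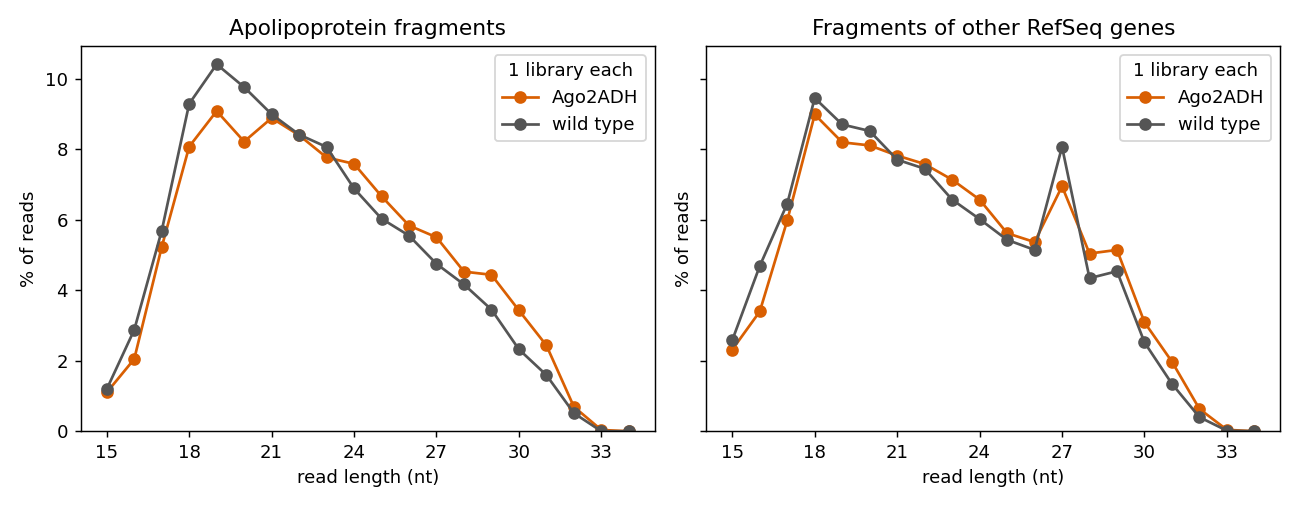
Read length of apolipoprotein fragments (left) and of fragments of other RefSeq genes (right), as percent of reads at each length in nt, in the Ago2ADH and the wild type library. Apolipoprotein reads of 25 nt and longer made up 33.6% in Ago2ADH and 28.4% in wild type.

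A larger share of the fragments was long in Ago2ADH. The mean length was 22.8 nt in Ago2ADH and 22.2 nt in wild type, and the median was 22 nt in both. Reads of 25 nt and longer made up 33.6% (32.7 to 34.5) of them in Ago2ADH and 28.4% (27.6 to 29.2) in wild type. For other RefSeq genes these shares were 33.9% in Ago2ADH and 31.8% in wild type. Other RefSeq genes also had a peak at 27 nt, with 6.95% of reads in Ago2ADH and 8.07% in wild type, where the apolipoprotein reads had 5.51% in Ago2ADH and 4.75% in wild type and no peak. The share was higher in Ago2ADH for all 7 members with 100 or more reads, as it was for 72.1% of the 3329 genes tested. It was 34.1% in Ago2ADH and 28.2% in wild type for Apob, and 34.03% in Ago2ADH and 30.1% in wild type for Apoa1. Apoc1 differed least, by 0.197 percentage points, and Apom most, by 11.9. With reads of 25 to 30 nt alone, scaled to all reads of that length, the summed log2 ratio of the 9 genes was 0.20, and with reads of 19 to 24 nt it was -0.17. Among the long reads Apoa1, Apob and Apoh, whose ratios over all lengths were below 0, had log2 ratios of 0.11 (-0.0246 to 0.24), 0.21 (0.11 to 0.30) and 0.13 (-0.14 to 0.40), of which the interval of Apob alone excludes 0. Apoa2, 1 of the 5 members with enough long reads, would be called higher among them, with 124 in Ago2ADH and 88 in wild type (0.65). The same setting called 17.6% of 579 genes higher and 2.76% lower. The median difference in the share of long reads was 5.60 percentage points over the 7 members and 4.47 over all genes tested.

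The 5′ ends of the fragments favoured certain bases. In 12.2% of Ago2ADH and 12.5% of wild type reads the fragment began with A after a C, a step (CpA) that makes up 8.45% of these transcripts when they are weighted by reads. Starts with A after an A took 11.8% in Ago2ADH and 12.2% in wild type, beside 8.23% of the transcripts. Some starts after a G were scarce: those with C took 3.59% in Ago2ADH and 3.07% in wild type, beside 6.28% of the transcripts, and those with U took 2.41% in Ago2ADH and 2.68% in wild type, beside 4.23%. Starts with G after a G took 3.95% in both, beside 6.15%, and starts with A after a G took 7.07% in Ago2ADH and 7.75% in wild type, close to their 7.95% of the transcripts. After a U, starts with A took 3.76% in Ago2ADH and 4.38% in wild type, beside 3.53% of the transcripts. After a C, starts with U took 9.28% in Ago2ADH and 8.97% in wild type, beside 7.28%. Starts with A after a U or a C, summed, were above their share of the transcript in each of the 7 genes in both libraries, though the intervals of Apoc1 in Ago2ADH and of Apom in wild type included that share. They ranged from 12.2% for Apoa1 to 20.0% for Apom in Ago2ADH and from 12.8% for Apom to 21.8% for Apoa2 in wild type.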

How the data were processed

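The authors deposited 1 table of raw read counts, with no normalization, for 2344366 distinct sequences of 15 to 34 nt. Per the file headers, the columns beside the counts hold genome matches, a class and a description for each sequence. Per the labels' protocols the RNA was a gel fraction of 19 to 30 nt, amplified by RT-PCR. For the aligner, the trimming and the genome build, the sources used here give nothing. The members and gene lists were chosen with earlier results of these data known. Counts were summed by symbol and divided by all reads of the library. Ratios have exact conditional binomial 95% intervals, levels exact Poisson intervals and shares exact Clopper-Pearson intervals. PCR reads without molecular identifiers are not independent molecules, so intervals and the floor of 3 counts cover counting error only. Reads were placed by exact match on GENCODE M21 transcripts (GRCm38), using for each gene the shortest coding transcript that held 97% of its matching reads, or the fullest one. Regions and segments go by the middle of the read. The rule for calls was tested on simulated data. Named were all members, their top sequences, the called and the 6 most abundant genes of the lipoprotein list, the 2 most abundant genes of each marker list and Ago2. The genes Apoa5, Apoc2, Apoc4, Apof, Slc4a1, Spna1, Emr1, Csf1r, Cd68, Serpina1a, Alpi and Amn were named after their values were seen. Alternatives were other scalings (TMM by edgeR 4.0.16), read sets, minimums and fold limits. Scripts used Python 3.11.15, pandas 2.3.3 and scipy 1.17.1.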

Additional observations from a re-analysis of the deposited data

How the results depend on the processing

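No paired analysis was possible because each genotype has 1 library. No apolipoprotein gene was called lower under any of the alternatives with a fold limit, and 3 were without one. The intervals of these 3 include 0 when scaled to RefSeq reads and exclude 0 by TMM. The number called higher was 0, and 1 with reads of 25 to 30 nt (Apoa2, log2 ratio 0.65; 102 of 579 genes were called higher there), at a minimum of 50 reads and with no minimum (Apoc3 in both), and without a fold limit (Apoa2). The summed log2 ratio was -0.17 with reads of 19 to 24 nt, 0.20 with reads of 25 to 30 nt, 0.0193 with distinct sequences, 0.0229 scaled to RefSeq reads and 0.00639 scaled to reads outside the miRNA class. By TMM it was -0.0675. Over all genes the number called lower, 123 of 3329, became 268 and 17 at limits of 5/4-fold and 2-fold, and 310 with no fold limit (an alternative chosen after seeing the data). It was 237 of 5913, 44 of 1437 and 471 of 16128 genes tested at minimums of 50, 200 and 0 reads. With distinct sequences it was 49 of 2720, with reads of 25 to 30 nt 16 of 579, and with reads of 19 to 24 nt 118 of 1425. The number called higher, 141 of 3329, became 298, 13 and 343 at those fold limits and 225 scaled to RefSeq reads. At those minimums it was 264, 53 and 483, and with reads of 19 to 24 nt 42 of 1425. The lipoprotein list had 0 lower at 2-fold and 2 with 1 genome match, also an added setting, where Hmgcs1 has no reads left. The cause of these differences was not tested. Member values moved with read length: Apom ran from -0.22 with reads of 19 to 24 nt to 0.62 with reads of 25 to 30 nt, Apob from -0.20 to 0.21, and Apoa1 from -0.22 to 0.11. Apoc3 stood at 1.95 with 28 reads of 19 to 24 nt, and its 4 reads of 25 to 30 nt were too few for a ratio. Depth limits Apoc3, Apom and Apoc1, and 3 reads correspond to 0.426 RPM in Ago2ADH and 0.395 RPM in wild type.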
